A study of Mus musculus with 42 samples.

Results

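The metallothioneins Mt1, Mt2 and Mt3 were measured in 4 hypothalamic nuclei of mice that had eaten freely or fasted for 24 hours. They are 3 of the 37907 genes in the expression table. Members were taken by name, and Mt1 and Mt2 were chosen by their higher RPKM after fasting in these same libraries, so their fasting differences are given as a description with no test. Mt3 was included as the third member of the family, and Mt4, the remaining gene of the cluster, was read as a neighbour.

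Metallothioneins are small proteins rich in cysteine that bind zinc and copper. Mt1 and Mt2 are made in most tissues, in the brain mainly in glia, and their transcription is raised by zinc through the metal-responsive factor MTF-1 and by glucocorticoids through the glucocorticoid receptor. Mt3, also called growth inhibitory factor, is the form enriched in brain and responds little to metals, and Mt4 is a form of stratified epithelium.

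All libraries came from wild-type male adult mice of strain C57/BL6, so no allele or drug differs between groups. The arcuate nucleus (ARC), ventromedial hypothalamus (VMH), dorsomedial hypothalamus (DMH) and paraventricular nucleus (PVN) were cut from frozen sections by laser-capture microdissection, and the small amounts of RNA were amplified before sequencing. The groups were ARC fed (n = 5) and fasted (n = 5), VMH fed (n = 6) and fasted (n = 6), DMH fed (n = 5) and fasted (n = 4), and PVN fed (n = 6) and fasted (n = 5), which makes 42 libraries. The nuclei were captured from the same brains, but the labels do not tie a library to a mouse, so libraries of different nuclei may share an animal and p-values between nuclei treat them as separate. Replicates carry only a number. A lower level in captured tissue cannot be told apart from fewer cells that express the gene.

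Captured tissue carried the markers of its nucleus. The summed RPKM (a read number divided by gene length and by library size) of ARC markers was 1012 to 2553 in ARC libraries and 19.93 to 123 elsewhere, and that of VMH markers was 143.5 to 263.4 in VMH libraries and 4.002 to 30.22 elsewhere. DMH markers summed to 159.2 to 254.7 in the DMH and 6.021 to 70.71 elsewhere, and PVN markers to 4622 to 8700 in the PVN and 13.9 to 177.2 elsewhere. Of these markers, Agrp rose in the ARC (1.61, limma adjusted p = 0.0613) and the DMH marker Ppp1r17 rose in the PVN (1.28, limma adjusted p = 0.0345) with fasting, and no other passed. Depth, recovered from the steps between the lowest values, was 1329000 to 13249000 reads per library (median 4469000). It is the read total behind the RPKM scaling, not the number of reads sequenced. The paper's average of sequenced reads per sample, taken over both genotypes, is larger. Fasted DMH libraries had the highest median, 5744000 reads (range 4780000 to 13249000), against 3566000 (2942000 to 5052000) in fed DMH libraries. The libraries fell into 3 inferred batches of 10, 16 and 16, and batch 1 held 0 fasted DMH libraries.

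The 3 genes lie side by side on mouse chromosome 8 (GRCm38, plus strand). Mt3 (ENSMUSG00000031760) spans 94152607 to 94154146 with 1066 bases of exon, Mt2 (ENSMUSG00000031762) spans 94172664 to 94173568 with 588 bases of exon, and Mt1 (ENSMUSG00000031765) spans 94179082 to 94180327 with 1246 bases of exon. Mt4 (ENSMUSG00000031757) lies before them, at 94137197 to 94139031. No stretch of 50 bases is shared between the transcripts of Mt1, Mt2 and Mt3, so a read of that length can be assigned to 1 of them. Mt2 is the exception for overlap with another gene: 73.5% of its exon bases lie under the antisense gene Gm45774, which has no row in the table, and 45.8% of its 50-base stretches occur in that transcript too. The libraries were not stated to keep strand, so reads of Mt2 and of that antisense RNA cannot be told apart.

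The sequences before the starts of the 3 genes are shown because Mt1 and Mt2 are textbook targets of MTF-1 and the glucocorticoid receptor while Mt3 is not. Each line gives the 250 bases before the RefSeq start (GRCm38.p6, plus strand), at chr8:94178839-94179088 for Mt1, chr8:94172368-94172617 for Mt2 and chr8:94152357-94152606 for Mt3. Capitals mark the core of the metal response element, searched as TGCACNC or TGCGCNC on both strands.
Mt1: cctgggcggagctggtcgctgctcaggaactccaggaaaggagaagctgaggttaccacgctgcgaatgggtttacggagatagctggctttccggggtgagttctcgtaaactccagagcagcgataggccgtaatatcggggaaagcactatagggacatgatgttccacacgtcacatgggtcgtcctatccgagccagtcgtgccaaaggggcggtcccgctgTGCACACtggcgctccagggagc
Mt2: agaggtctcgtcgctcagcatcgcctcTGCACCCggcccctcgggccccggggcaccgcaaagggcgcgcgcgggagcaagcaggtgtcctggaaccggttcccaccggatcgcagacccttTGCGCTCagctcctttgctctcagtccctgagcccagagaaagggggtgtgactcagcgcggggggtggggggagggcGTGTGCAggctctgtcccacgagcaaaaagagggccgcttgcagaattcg
Mt3: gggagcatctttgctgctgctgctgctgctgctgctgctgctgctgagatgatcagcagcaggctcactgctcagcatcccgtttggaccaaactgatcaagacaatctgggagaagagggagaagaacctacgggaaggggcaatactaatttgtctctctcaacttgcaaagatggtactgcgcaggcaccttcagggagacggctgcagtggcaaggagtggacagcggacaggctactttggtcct

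Of 32851 mouse promoters searched in the same way, 21.4% held at least 1 metal response core and 1.26% held at least 3. Mt1 held 1 core, Mt2 held 3 and Mt3 held 0. For Mt1, a further 2 cores lie just after the RefSeq start, at bases 3 to 27, in the stretch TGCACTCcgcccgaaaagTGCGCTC (chr8:94179091-94179115, capitals as above). Over the whole 300-base window, with the bases after the start included, Mt1 held 3 cores, Mt2 held 4 and Mt3 held 1, and 1.97%, 0.517% and 25.7% of promoters held at least as many. The antioxidant response motif TGACNNNGC, which overlapped no metal core, was found in Mt2 only, with 1 match, and in 10.2% of promoters. The short glucocorticoid receptor motif AGAACA (16.1% of promoters), the full palindromic glucocorticoid site (0.00913%) and the STAT motif TTCNNNGAA (7.02%) had 0 matches in the 3 windows. A match is a description of letters, and 0 matches say only that those letters are absent from this window. Each window depends on the 1 RefSeq start used, and windows before other possible starts were not searched.

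In fed mice Mt1 and Mt2 were among the most abundant transcripts of every nucleus, and Mt3 was not. By mean RPKM over 35965 named genes, Mt1 ranked 479 in fed ARC, 176 in fed VMH, 497 in fed DMH and 526 in fed PVN. Mt2 ranked 365, 267, 309 and 400 in the same order. Mt3 ranked 10634, 10334, 8854 and 8990, and the RPKM of Mt1 was 3.93 to 38.3 times that of Mt3 over the 42 libraries. These ranks and ratios depend on the gene lengths used, since the exons of Mt3 add up to 1066 bases while its longest transcript has 536. Mt4 stood at the value the table gives a gene with no read in 39 of 42 libraries, and held 2 or 3 reads in the other 3.

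The precision behind these values differed between the members. Estimated reads per library were 171 to 3179 for Mt1 (median 547), 86 to 1960 for Mt2 (median 297) and 6 to 130 for Mt3 (median 32). Counting error alone is therefore 4.27% for Mt1, 5.81% for Mt2 and 17.6% for Mt3 at the median read number, before any error from amplification. The residual SD between libraries of a group on the log2(RPKM + 1) scale was 0.27 for Mt1, 0.37 for Mt2 and 0.61 for Mt3.

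**Figure D1:**
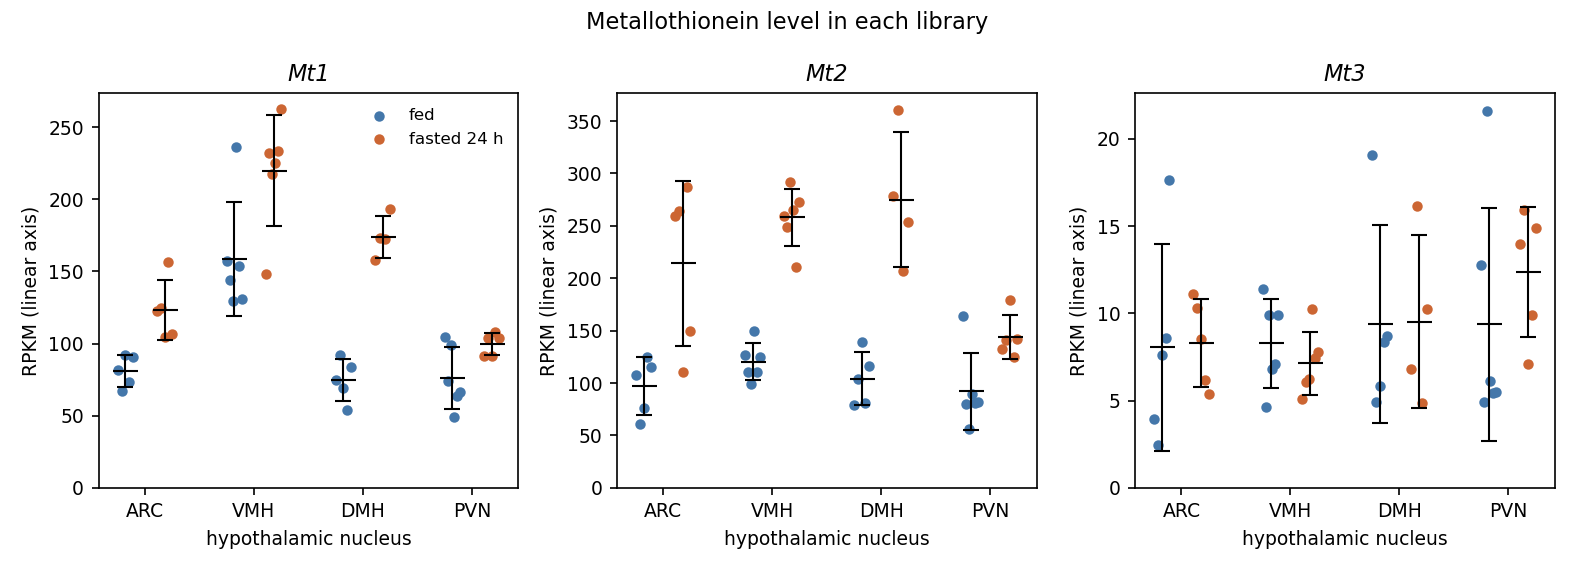
Level of Mt1, Mt2 and Mt3 in each library, as RPKM on a linear axis that starts at 0, by nucleus and nutritional state. Points are libraries and black bars are mean and SD. Fasted libraries lie above every fed library for Mt1 in the ARC and DMH and for Mt2 in the VMH and DMH, while the Mt3 groups overlap in all 4 nuclei.

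Mt1 and Mt2 were higher after fasting in all 4 nuclei, by 1.31 to 2.33 times for Mt1 and 1.56 to 2.64 times for Mt2, and both differences were largest in the DMH. These differences chose the genes, so they carry no test and were not compared between nuclei. All log2 values that follow are differences on the log2(RPKM + 1) scale, with the standard error from a limma fit to all 33579 genes tested. Genes tested had at least 1 RPKM in at least 4 libraries. The table gives a gene with no read a value above 0, so short genes such as Mt4 could pass this filter. Such genes can hardly pass a test, so they lower the shares of genes tested given below.

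In the DMH, Mt1 was 75, 92.03, 69.22, 54.23 and 83.51 RPKM in fed mice. It was 157.8, 172.9, 172.3 and 193.4 RPKM in fasted mice. Every fasted library lay above every fed one, a pattern seen in 0.685% of all genes tested, and the mean went from 74.8 ± 14.4 (SD, n = 5) to 174 ± 14.6 RPKM (SD, n = 4). The log2 difference was 1.23 ± 0.18 (SE). It ranked 12 among all genes, a place made likely by the choice of Mt1 for this rise. Mt1 itself was not tested, and 0.0238% of genes passed the limma test in this nucleus.

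Mt2 in the DMH was 79.22, 104.1, 139.5, 81.39 and 115.9 RPKM in fed mice and 278.4, 361, 207 and 253.4 RPKM in fasted mice. The groups did not overlap here either, although fasted values spread from 207 to 361. The mean went from 104 ± 25.1 to 275 ± 64.6 RPKM (SD, n = 5 and 4). The log2 difference of 1.40 ± 0.25 ranked 2 of 33579, a place likewise made likely by the choice of Mt2 for its rise. Fasted DMH libraries were also deeper by median. With depth in the fit the log2 difference was 1.15 for Mt1 and 1.45 for Mt2. Within the 2 batches that held both states it was 1.04 and 1.43 for Mt1 and 1.39 and 1.23 for Mt2.

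In the ARC, Mt1 was 81.85, 67.06, 92.13, 73.22 and 90.9 RPKM in fed mice and 122.6, 124.9, 104.8, 156.9 and 106.7 RPKM in fasted mice. The lowest fasted library stood above the highest fed one, as for 0.408% of genes tested. The mean went from 81 ± 10.9 to 123 ± 20.9 RPKM (SD, n = 5 each), with a log2 difference of 0.59 ± 0.17.

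Mt2 in the ARC was 107.4, 61.23, 76.3, 125.3 and 115.6 RPKM in fed mice. Fasted values were 259.5, 263.8, 111, 287.4 and 149.7 RPKM. Fasted libraries 3 and 5 were well below the other 3, and library 3 fell within the fed range. The mean was 97.2 ± 27.2 RPKM fed and 214 ± 78.5 RPKM fasted (SD, n = 5 each), a log2 difference of 1.09 ± 0.24. In this nucleus 0.0566% of genes passed the limma test.

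In the VMH, where Mt1 was most abundant, fed values ran from 129.4 to 236.1 RPKM (median 148.7, n = 6) and fasted values from 148.5 to 262.7 RPKM (median 228.6, n = 6). Fed library 4, at 236.1 RPKM, stood above 5 of the 6 fasted libraries, and fasted library 1, at 148.5 RPKM, stood within the fed range. The mean went from 159 ± 39.7 to 220 ± 38.2 RPKM (SD), with a log2 difference of 0.48 ± 0.16 that was 0.60 without fed library 4.

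Mt2 in the VMH ran from 99.06 to 149.8 RPKM (median 118.1) in fed mice and from 210.9 to 291.6 RPKM (median 262.1) in fasted mice. Here the groups were far apart, with no overlap in 6 against 6 libraries, as for 0.131% of genes tested. The mean went from 120 ± 17.7 to 258 ± 27.2 RPKM (SD), and the log2 difference was 1.10 ± 0.21. The share of genes that passed the limma test in the VMH was also 0.131%.

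The PVN showed the smallest differences. Mt1 ran from 49.15 to 104.4 RPKM (median 70.14, n = 6) in fed mice and was 91.36, 103.7, 91.66, 107.8 and 103.6 RPKM in fasted mice. Fasted values were tightly grouped and overlapped the top of the fed range, with means of 76.1 ± 21.5 and 99.6 ± 7.6 RPKM (SD) and a log2 difference of 0.43 ± 0.16.

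Mt2 in the PVN ran from 55.96 to 163.6 RPKM (median 81.55) in fed mice and was 132.1, 141, 179.5, 124.8 and 142.3 RPKM in fasted mice. Fed library 1 alone, at 163.6 RPKM, reached the fasted range, and the other 5 fed libraries were at most 89.63 RPKM. The mean went from 92 ± 36.9 to 144 ± 21.1 RPKM (SD), with a log2 difference of 0.71 ± 0.23. In the PVN 0.22% of genes had every fasted library above every fed one and 0.0715% passed the limma test.

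The direction for Mt1 and Mt2 was the same within each inferred batch that held both states, but the size was not. Within-batch log2 differences ran from 0.54 to 0.66 for Mt1 and 0.78 to 1.31 for Mt2 in the ARC, and from 0.30 to 0.80 and 1.02 to 1.18 in the VMH. In the PVN they ran from 0.06 to 0.70 for Mt1 and from 0.21 to 1.16 for Mt2. The lowest PVN values came from batch 1, with 1 fasted and 2 fed libraries.

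**Figure D2:**
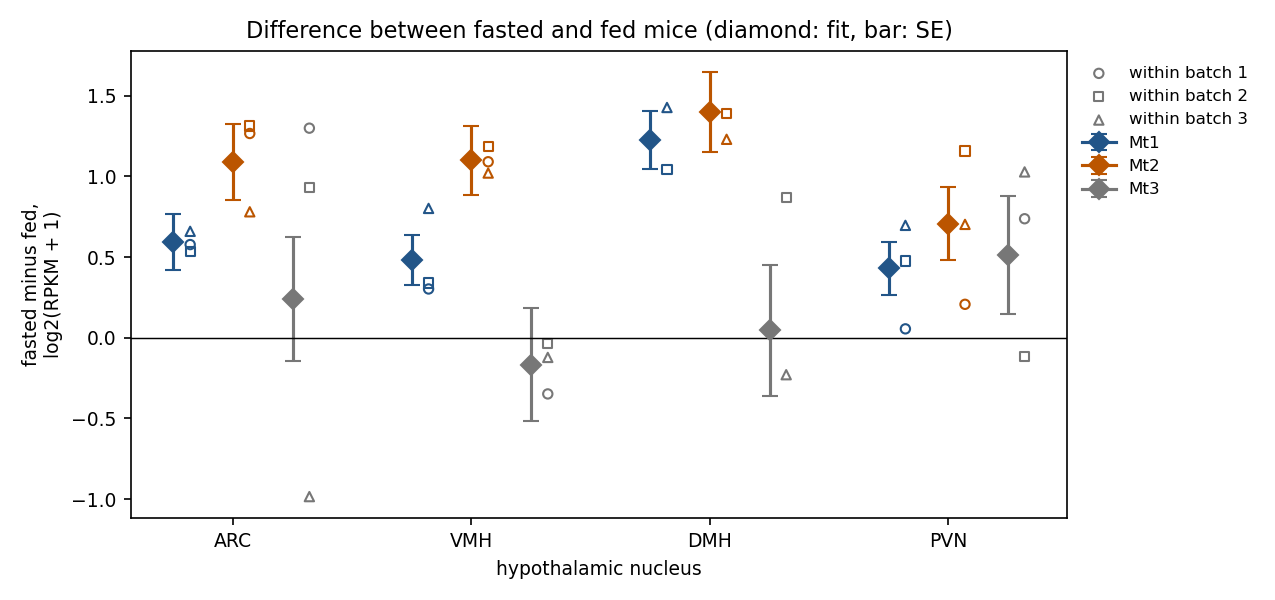
Difference between fasted and fed mice on the log2(RPKM + 1) scale for each member and nucleus. Diamonds are the fitted difference with its SE, and open symbols are the difference within an inferred batch. Mt1 and Mt2 are above 0 in every batch drawn, with DMH values of 1.23 and 1.40, while Mt3 batch values lie on both sides of 0 in the ARC, DMH and PVN.

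Mt3, whose change with fasting did not pick it, did not pass the test in any nucleus. In the DMH it was 19.09, 4.899, 5.811, 8.363 and 8.696 RPKM in fed mice and 6.804, 16.16, 4.881 and 10.24 RPKM in fasted mice. In the ARC it was 3.923, 2.43, 7.624, 8.592 and 17.66 RPKM in fed mice and 11.1, 10.29, 8.535, 6.195 and 5.36 RPKM in fasted mice. Fed and fasted libraries were intermixed in both nuclei, and 1 fed library was above every fasted one in each.

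In the VMH Mt3 ran from 4.613 to 11.4 RPKM fed (median 8.485) and from 5.082 to 10.24 RPKM fasted (median 6.839). In the PVN it ran from 4.89 to 21.62 RPKM fed (median 5.808), and fasted values were 14, 15.91, 7.099, 9.893 and 14.89 RPKM. Fed PVN libraries 1 and 3, at 12.75 and 21.62 RPKM, spread across and beyond the fasted range.

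The log2 difference of Mt3 was 0.24 in the ARC (95% interval -0.54 to 1.02, exact permutation p = 0.643), with 3 of 5 fasted libraries above the fed mean. It was -0.17 in the VMH (-0.88 to 0.54, exact permutation p = 0.439), with 1 of 6 above. It was 0.05 in the DMH (-0.78 to 0.87, exact permutation p = 0.921), with 2 of 4 above, and 0.51 in the PVN (-0.23 to 1.26, exact permutation p = 0.225), with 4 of 5 above. The exact tests are two-sided, and the limma p adjusted over all genes was 1 in each nucleus. Without fed PVN library 3 the PVN difference was 0.78 (limma adjusted p = 0.955). Between the nuclei the fasting difference of Mt3 did not pass a limma interaction test (F = 0.64, limma adjusted p = 1, with 0.00596% of genes passing).

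Levels between nuclei were compared by averaging the fed and fasted group means. The fasted means also entered the differences that chose Mt1 and Mt2, so this average is not wholly free of that choice. Mt1 was highest in the VMH. Its averaged level, brought back from the log scale, was 183 RPKM in the VMH, 113 RPKM in the DMH, 99 RPKM in the ARC and 85.5 RPKM in the PVN. The 4 nuclei differed (limma F = 35.4, adjusted p = 5.67e-09, rank 724 of 33579 by F), in a table where 18.7% of genes passed that test.

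Mt1 in the VMH was above each of the other nuclei. The ARC was 0.88 log2 units below it (95% interval -1.12 to -0.65, limma adjusted p = 3.3e-07, 13.4% of genes passing for that pair). The VMH was 0.69 above the DMH (0.45 to 0.93, limma adjusted p = 8.69e-05, 7.77% of genes passing) and 1.09 above the PVN (0.86 to 1.32, limma adjusted p = 2.07e-09, 14.9% of genes passing). In fed mice alone the VMH was 1.06 above the DMH (limma adjusted p = 0.0019). In fasted mice alone the difference was 0.32 and lost its call. It is given with no p-value, since high fasted levels helped choose Mt1, and the gap between the states was not tested.

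Lower in the order, Mt1 in the DMH was 0.40 log2 units above the PVN (0.15 to 0.65, limma adjusted p = 0.0492, 6.45% of genes passing). That difference was 0.00 in fed libraries alone (0.001, limma adjusted p = 1) and 0.80 in fasted libraries alone. The fasted value is given with no p-value, since high fasted levels helped choose Mt1. The gap between the states rests on the fasting differences and was not tested. With a replicate block the DMH to PVN difference lost its call (0.38, limma adjusted p = 0.107). Neighbours ARC and DMH differed by -0.19 (-0.44 to 0.06, limma adjusted p = 0.576, 5.75% of genes passing), and ARC and PVN by 0.21 (-0.03 to 0.45, limma adjusted p = 0.479, 7.4% of genes passing), neither of which passed.

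Mt2 had the same order of nuclei with averaged levels of 175 RPKM in the VMH, 166 RPKM in the DMH, 137 RPKM in the ARC and 112 RPKM in the PVN (limma F = 6.78, adjusted p = 0.00915). The VMH was 0.65 log2 units above the PVN (0.33 to 0.96, limma adjusted p = 0.00284) and the DMH was 0.57 above the PVN (0.23 to 0.91, limma adjusted p = 0.0401). The remaining pairs did not pass, with VMH and DMH 0.08 apart (-0.25 to 0.41). In fed libraries alone the 4 nuclei were not shown to differ in Mt2 (limma F = 1.52, adjusted p = 0.704), and the VMH to PVN difference was 0.45 (limma adjusted p = 0.334) and the DMH to PVN difference 0.22 (limma adjusted p = 0.936). The DMH to PVN call was also lost with a replicate block (0.54, limma adjusted p = 0.111).

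Averaged levels of Mt3 were 7.3 RPKM for ARC, 7.46 RPKM for VMH, 8.55 RPKM for DMH and 9.79 RPKM for PVN. None of its 6 pairs passed, and the 4 nuclei were not shown to differ (limma F = 0.907, adjusted p = 0.739). The interval for ARC against PVN ran from -0.92 to 0.16 log2 units.

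By mean ratio, fed VMH libraries had the least Mt2 relative to Mt1. Mt2 was the lower of the 2 in all 6 fed VMH libraries, with a mean log2 ratio of Mt2 to Mt1 of -0.38 ± 0.19 (SD). In each of the other 7 groups that mean was above 0, at 0.22 in fed and 0.72 in fasted ARC, 0.47 and 0.63 in the DMH, 0.24 and 0.52 in the PVN, and 0.24 in fasted VMH. The level of this ratio depends on the gene lengths used, since the exons of Mt1 add up to 1246 bases while its shortest transcript has 549, but differences in it between groups do not.

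Averaged over both states, the log2 ratio was -0.07 in the VMH, 0.47 in the ARC, 0.55 in the DMH and 0.38 in the PVN. In exact permutation tests within nutritional state, chosen after the values were seen and adjusted over 6 pairs, the VMH was lower than the ARC by 0.54 (adjusted p = 0.00665), than the DMH by 0.62 (adjusted p = 0.00408) and than the PVN by 0.45 (adjusted p = 0.021). The other 3 pairs had adjusted p of 0.573 to 0.672 in the same exact tests. In fasted libraries alone none of the 3 VMH differences passed (exact permutation, adjusted p = 0.355 for each, differences of 0.48, 0.39 and 0.28). High fasted levels helped choose both genes, so tests that use fasted libraries are not free of that choice.

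**Figure D3:**
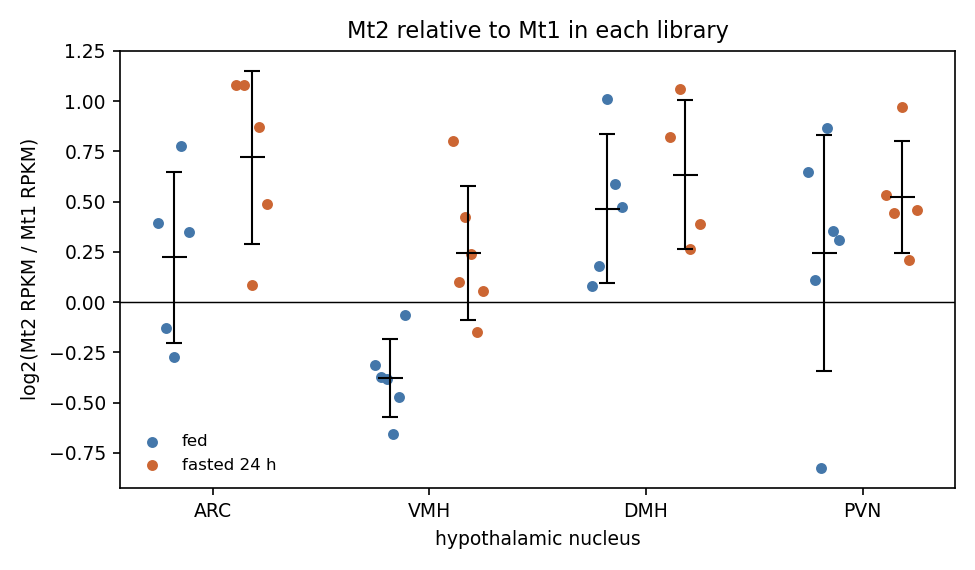
Log2 ratio of Mt2 to Mt1 RPKM in each library by nucleus and nutritional state, with points for libraries and black bars for mean and SD. All 6 fed VMH libraries lie below 0, with a mean of -0.38, and the means of the other 7 groups lie between 0.22 and 0.72.

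After removal of group means, no relation between members from library to library passed adjustment. Pearson's r of Mt1 with Mt2 was 0.63 in the ARC (n = 10, Spearman's rho = 0.624, exact permutation p = 0.0761 and 0.0768), and 0.438 without the 2 libraries farthest out. In the VMH it was 0.453 (n = 12, rho = 0.336, permutation p = 0.161 and 0.295), in the DMH 0.21 (n = 9, rho = 0.0333, exact permutation p = 0.647 and 0.95) and in the PVN 0.13 (n = 11, rho = -0.127, exact permutation p = 0.823 and 0.739). Without the 2 farthest libraries r was 0.256 for VMH, and it changed sign to -0.164 for DMH and -0.724 for PVN. The 12 relations had a lowest adjusted p of 0.457 by permutation. The highest was Mt1 with Mt3 in the PVN (r = 0.703, rho = 0.673, exact permutation p = 0.0627 and 0.0434, adjusted p = 0.457 and 0.461, r = 0.798 without the 2 farthest libraries).

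The named genes whose residual pattern was most like each member, over 42 libraries and 14465 genes with a mean of at least 5 RPKM, were not the other members. For Mt1 they were Cbfb (r = 0.686), Eftud2 (0.649), Slc25a39 (0.583), Atp1b2 (0.558) and Fam13c (0.557). For Mt2 they were 9130221H12Rik (0.682), Cmtm5 (0.67), Zfp933 (0.609), Ankfn1 (0.592) and Tjp1 (0.586), and for Mt3 Slc25a20 (0.665), Retreg3 (0.61), Gm25526 (0.59), Spire2 (0.589) and Far2os1 (0.569). Rows with no gene name, at rank 4 for Mt1 and rank 2 for Mt3, were passed over. Mt2 stood at rank 689 for Mt1 (r = 0.311). These values describe libraries that share amplification, depth and possibly animals, and carry no test.

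The genes around metallothioneins were read as lists. Few genes of any kind passed the limma test between fasted and fed mice, 0.0566% of all tested for ARC, 0.131% for VMH, 0.0238% for DMH and 0.0715% for PVN, so a count of 0 in a short list is near the background and does not show that its genes did not move. Of zinc sensing and transport genes, 0 of 20 tested (of 21 listed) passed the limma test in any nucleus, with median log2 differences for ARC, VMH, DMH and PVN of 0.02, -0.06, -0.12 and 0.04, beside a median of 0 over all genes tested. Mtf1, which encodes the zinc-sensing factor that drives Mt1 and Mt2, had log2 differences of 0.01, 0.20, -0.28 and -0.12 in the ARC, VMH, DMH and PVN. Slc30a1, the plasma membrane zinc exporter and another MTF-1 target, had -0.37, -0.38, 0.01 and 0.30. For both, limma adjusted p was at least 0.654. The most abundant zinc genes were the importers Slc39a6 (mean over all libraries 46.9 RPKM) and Slc39a10 (29 RPKM) and Slc30a9 (18.8 RPKM). Slc39a10 had log2 differences of -0.43, -0.44, -0.25 and -0.24 in the same order (limma adjusted p at least 0.215), Slc39a6 -0.06, -0.04, -0.18 and -0.34, and Slc30a9 0.03, 0.00, -0.10 and -0.17.

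Copper handling genes and glutathione and NRF2 target genes passed in 0 of 12 and 0 of 14 cases in each nucleus, against the same background of 0.0238% to 0.131% of genes. Their medians ran from -0.01 to 0.17 and from -0.06 to 0.11. The copper and zinc superoxide dismutase Sod1, at a mean of 771 RPKM, differed by -0.12 to 0.19, the mitochondrial copper chaperone Cox17 by -0.25 to 0.13, and the copper chaperone Atox1 by -0.97 to 0.63 with wide errors. The glutathione transferases Gstm1 (166 RPKM) and Gsta4 (68.6 RPKM) differed by -0.08 to 0.18 and -0.34 to 0.27, and thioredoxin, Txn1 (67.7 RPKM), by -0.19 to 0.08. Srxn1, named after its value was seen, the sulfiredoxin that repairs oxidised peroxiredoxins, came closest, with 0.77 ± 0.17 (SE) in the PVN (limma adjusted p = 0.101). Genes that flank the metallothioneins on chromosome 8, Mt4 among them, passed in 0 of 8 tested (of 9 listed) in every nucleus, with medians of -0.11 to 0.01. Of these, Gnao1 (128 RPKM) and Ogfod1 (48.7 RPKM) differed by -0.05 to 0.07 and -0.21 to 0.03.

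Genes that textbooks list as induced by glucocorticoids included some that rose in each nucleus. Of 16 tested, the number that rose was 3 for ARC, 3 for VMH, 2 for DMH and 4 for PVN, where 0.0566%, 0.131%, 0.0238% and 0.0715% of all genes passed. In this list 0 fell, and the medians were 0.52, 0.43, 0.71 and 0.71. Fam107a, a stress-responsive actin regulator, rose by 0.86 in the ARC (limma adjusted p = 0.000651), 0.80 in the DMH (0.00391 by limma) and 0.81 in the PVN (0.000437 by limma). Glul, the glutamine synthetase of astrocytes, rose by 0.51, 0.73 and 0.49 in the same nuclei (limma adjusted p = 0.0502, 0.00136 and 0.0349). Cdkn1a, the cell cycle inhibitor p21, rose by 1.92, 1.59 and 1.81 in ARC, VMH and PVN (limma adjusted p = 0.0613, 0.0897 and 0.0573).

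Hif3a, a hypoxia-inducible factor subunit, rose in the VMH (1.16, limma adjusted p = 0.0974) and PVN (1.41, limma adjusted p = 0.0374). Plin4, a lipid droplet coat protein, rose in the VMH (1.12, limma adjusted p = 0.0555). The other members did not pass in any nucleus, among them the transcription factor Klf9, with 0.44 to 0.69 (limma adjusted p at least 0.238), and Fkbp5, a chaperone of steroid receptors named after its values were seen, with 1.13 in the ARC and 1.30 in the PVN (limma adjusted p = 0.29 and 0.14). Nr3c1, which encodes the glucocorticoid receptor itself, had log2 differences of 0.09, -0.01, -0.21 and -0.44 in the ARC, VMH, DMH and PVN (limma adjusted p at least 0.627). The list was drawn up with earlier results of these libraries known, so its direction is not independent evidence, and its part in the difference of Mt1 and Mt2 was not tested.

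**Figure D4:**
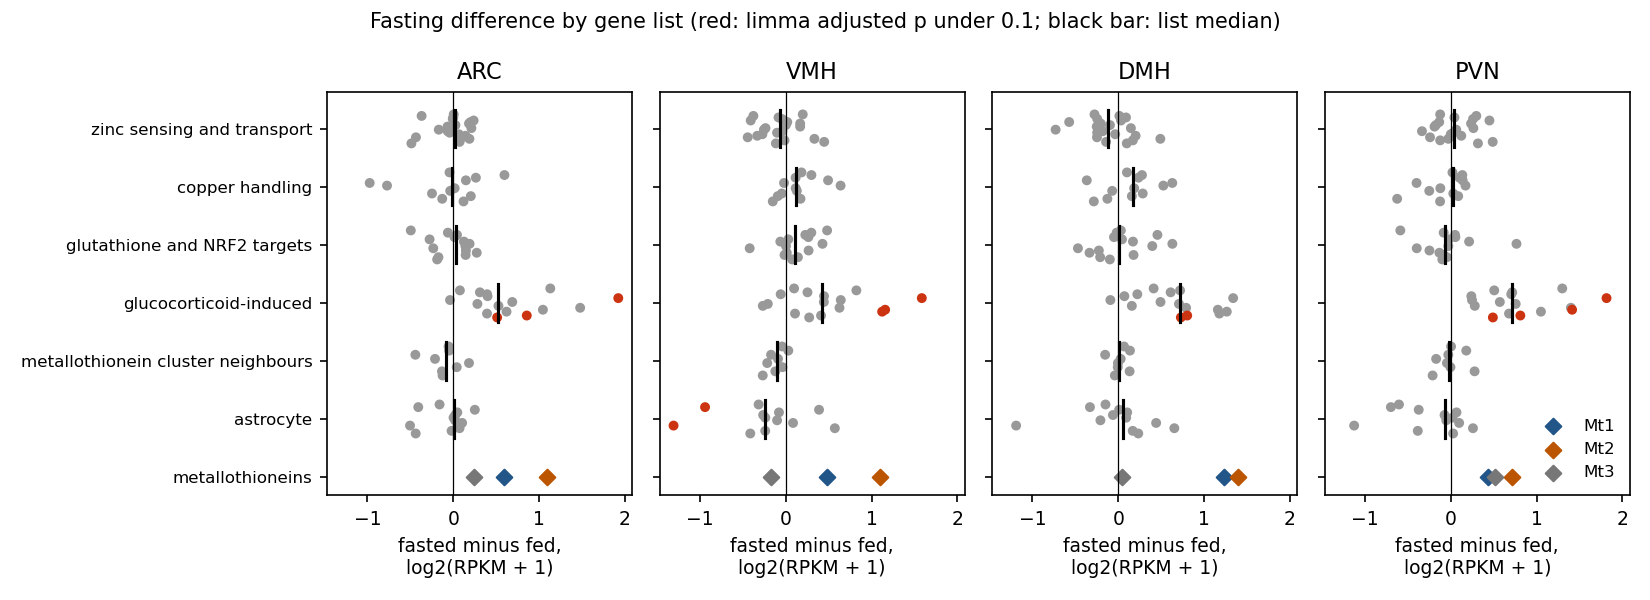
Difference between fasted and fed mice on the log2(RPKM + 1) scale for each tested gene of 6 lists and for the metallothioneins, by nucleus. Points are genes, red points had a limma adjusted p under 0.1, and black bars are list medians. The glucocorticoid-induced list has medians of 0.43 to 0.71, and the zinc list has medians of -0.12 to 0.04 and no red point.

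Astrocytes are among the glia that make Mt1 and Mt2. Of 12 astrocyte markers tested, 0 passed in the ARC, DMH or PVN, where at most 0.0715% of all genes did. In the VMH, where 0.131% of all genes passed, 2 of the 12 fell. They were Aqp4, the water channel of astrocyte endfeet (-0.94, limma adjusted p = 0.0477), and Fabp7, a fatty acid carrier (-1.31, limma adjusted p = 0.0555). The most abundant astrocyte genes, Aldoc (208 RPKM), Slc1a2 (132 RPKM) and Agt (51.7 RPKM), differed by 0.09 to 0.44, -0.26 to 0.02 and 0.07 to 0.65. The summed level of the list was 643 to 945.5 RPKM in fed and 588.7 to 730.7 RPKM in fasted VMH libraries, and 582.3 to 739.3 RPKM in fed and 672 to 755.8 RPKM in fasted DMH libraries. In the ARC it was 498.3 to 569.1 RPKM fed and 470 to 547.9 RPKM fasted, and in the PVN 528.8 to 622.7 RPKM fed and 493.5 to 627.5 RPKM fasted. Markers of neurons, oligodendrocytes, microglia, endothelial cells and pericytes, tanycytes and ependymal cells, and blood passed in 0 cases in any nucleus. With 0.0238% to 0.131% of all genes passing, 0 is near the background and does not show that these markers did not move. Residual correlations of the 12 astrocyte markers lay on both sides of 0. With Mt2 they ran from -0.233 (Aldh1l1) to 0.572 (Slc7a10), and with Mt1 from -0.422 (Aldh1l1) to 0.271 (Agt), and they carry no test.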

How the data were processed

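Laser-captured ARC, VMH, DMH and PVN were sequenced in 42 libraries of fed and fasted wild-type mice. Per the labels and the study's methods, reads were aligned with TopHat2 2.0.11 to GRCm38, and libraries that stood apart on a scaling plot were removed. The authors deposited 1 table of RPKM. No value was 0: the authors had added a count, on average 5.0 reads, before scaling, which understates fold changes of low genes, and the lowest values appear to have had batch means removed. Low values were whole reads in 97.9% to 98.9% of cases (tolerance 0.05), which gave depth and batches. How gene length was set is not given in the sources used here.

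Genes with at least 1 RPKM in at least 4 libraries (33579) were fitted with limma 3.58.1 (R 4.3.3) on log2(RPKM + 1), with an intensity trend and 8 group means, Benjamini-Hochberg adjusted over all genes and read at 0.1. The script was tested on simulated data. Correlations and ratios used exact permutation, or 100000 resamples in the VMH. Replicate numbers were not used to pair the samples in the main fit, and a pairing by number was neither shown nor excluded. Named genes were the members, Mt4, Mtf1, Slc30a1, Nr3c1, the 5 most alike of each member, and from each list the genes that passed in any nucleus and the 3 of highest mean RPKM (for markers of other cell types and of nuclei, counts stand in place of the latter). The value of 1 such gene is not reported here. Members and lists were chosen with earlier results of these data known. Alternatives changed the pseudocount, filter, scaling, weights, covariates, replicate block and libraries. Replicates are not stated to be separate mice in the labels, but the paper counts those of a nucleus within a group as mice. P-values therefore measure the spread between libraries, which within a nucleus are separate mice by the paper's count. Intervals on reads cover counting error only.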

Additional observations from a re-analysis of the deposited data

Results flagged for a closer look

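In 24 groups of 4 to 6 libraries, 3 libraries stood farther from the rest of their group than Dixon's limit allows, where chance alone gives about 1.2. Mt1 in fed VMH library 4 was 236.1 RPKM, while the other fed VMH libraries were 129.4 to 157.5 RPKM. Mt2 in fed PVN library 1 was 163.6 RPKM, while the others were 55.96 to 89.63 RPKM. Mt3 in fed DMH library 1 was 19.09 RPKM, while the others were 4.899 to 8.696 RPKM. Without these libraries the log2 difference between fasted and fed mice was 0.60 for Mt1 in the VMH, 0.89 for Mt2 in the PVN and 0.32 for Mt3 in the DMH.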

How the results depend on the processing

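Over 57 results and 1815 alternative values, 1761 were labelled the same as the main value. For tests this meant an unchanged direction and side of the threshold, also where the main test did not pass. For the untested differences of Mt1 and Mt2 it meant the same direction and less than an SD from the main value. For counts of genes it meant a similar size. Without 1 library at a time, log2 differences between fasted and fed mice ran from 0.31 to 1.31 for Mt1 and 0.58 to 1.52 for Mt2 over the 4 nuclei. For Mt3 they ran from -0.05 to 0.56 in the ARC, -0.23 to 0.32 in the DMH and 0.39 to 0.78 in the PVN, where 0.78 was without fed library 3. Within a batch, Mt3 was -0.98 in the ARC (batch 3), -0.23 in the DMH (batch 3) and -0.12 in the PVN (batch 2), and array weights gave -0.011 in the DMH. Mt1 was 0.80 in the VMH in batch 3 and 0.055 in the PVN in batch 1, and Mt2 in the PVN was 0.21 in batch 1 and 1.16 in batch 2. In fed libraries only, the Mt2 nucleus effect had F = 1.52, the VMH to PVN difference of Mt2 was 0.45, the DMH to PVN difference was 0.00 for Mt1 (0.001) and 0.22 for Mt2, Mt1 in the ARC was 0.13 above the DMH, and the DMH to PVN difference of Mt3 was 0.056. In fasted libraries only, Mt1 in the ARC was -0.51 against the DMH, Mt1 in the VMH was 0.32 above the DMH, Mt2 in the VMH was -0.069 against the DMH, and Mt3 in the ARC was 0.18 above the VMH. That Mt3 difference was 0.01 with a pseudocount of 5 (0.005) and -0.19 to 0.12 without 1 library. Without 1 library, the DMH to PVN difference ran from 0.34 to 0.45 for Mt1, with the call lost without fed DMH library 2 or fasted DMH library 4, and from 0.50 to 0.66 for Mt2, with the call lost without fasted DMH library 2. With a replicate block it was 0.38 for Mt1 (limma adjusted p = 0.107) and 0.54 for Mt2 (0.111 by limma). The block changed no other call of the members. Of library pairs of 1 number, 0 of 20 fasted and fed ones deviated together above 0.1. Between nuclei 0 of 27 fasted and 0 of 31 fed ones did. No pair known to share a mouse was there for comparison, so a pairing by number was neither shown nor excluded. The ratio of Mt2 to Mt1 between nuclei gave 0.48, -0.39 and -0.28 for the VMH pairs in fasted libraries, with no call. The ARC to DMH ratio difference was 0.087 in fasted libraries and -0.15 to 0.00 (0.002) without 1 library, and the ARC to PVN one was -0.021 in fed libraries and -0.018 to 0.168 without 1 library. The correlation of Mt2 with Mt3 in the VMH was 0.0323 after centring. Genes called over the whole table were 19 in the ARC (8 with a pseudocount of 0.1, 40 with array weights), 44 in the VMH (16 with weights, 24 with a batch term, 17 with the block), 8 in the DMH (5 with a filter of 5 RPKM, 56 with weights) and 24 in the PVN (41 with a pseudocount of 5, 141 with weights). The causes were not tested. Low read numbers limit Mt3 most, with a counting error of 41.7% in its lowest library.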
